A study of Mus musculus with 32 samples.

Results

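The genes described here are the nuclear genes of complex III (the cytochrome bc1 complex), cytochrome c, complex IV (cytochrome c oxidase) and complex V (the ATP synthase) of the mitochondrial respiratory chain. They were chosen by symbol, namely those that start with Uqcr, Uqcc, Cox4 to Cox8, Cox10 to Cox19, Cox20 or Atp5, together with Cyc1, Cycs, Atpaf1 and Atpaf2. The naming rule itself uses no measured value, but it was set with earlier results of these data known, and a gene entered only if it passed the FDR and fold limits of at least 1 list. Of the 6212 gene symbols in any of 6 lists of differentially expressed genes, 46 met the rule, of which 10 belong to complex III, 1 is cytochrome c, 18 belong to complex IV and 17 to complex V. The annotation holds 68 genes that meet the rule, 59 of them protein coding. The 46 listed symbols comprise 45 protein-coding genes and 1 processed pseudogene, Cox6c2. The 15 listed nowhere among the protein-coding genes were the subunit genes or close relatives of subunit genes Cox4i2, Cox7a2l, Cox7b2, Cox8a, Cox8c, Atp5g2, Atp5mpl and Atp5s and the assembly factors Cox10, Cox14, Cox15, Cox18, Cox20, Uqcc2 and Uqcc3.

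RNA-Seq was carried out on 32 mouse samples in 10 groups to determine which genes respond in heart and skeletal muscle when RIP140 is deleted, a corepressor of nuclear receptors that Nrip1 encodes. All mice carried floxed Nrip1 alleles (Nrip1 f/f), and controls were Cre- while knockouts were Cre+. In the first line (strNrip1-/-) the promoter of muscle creatine kinase (MCK) drove Cre, and heart, gastrocnemius and soleus were each sampled from 3 control and 3 strNrip1-/- mice. Heart and gastrocnemius came from 8-week-old males, per the study's text. In the second line (csNrip1-/-) Cre was driven by Nkx2.5, and male mice underwent surgery at 8 weeks of age. Their hearts were sampled 4 weeks after sham surgery, with 4 control and 3 csNrip1-/- samples, or 4 weeks after TAC/MI, in which the aorta is constricted and a small apical infarct is made to bring on heart failure, with 3 control and 4 csNrip1-/- samples. The infarcted apex was removed before RNA was made, and the same region was removed from sham hearts. Since no control carried Cre, loss of Nrip1 and presence of Cre cannot be told apart. The labels do not tie the heart, gastrocnemius and soleus samples to individual mice.

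Each list gives the authors' log2 fold change, shrunken toward 0, and the adjusted p-value (false discovery rate, FDR) for the genes with an FDR below 0.05 and a change of at least 1.2-fold. There are 3 contrasts of strNrip1-/- against control tissue and 2 of csNrip1-/- against control hearts (after sham surgery and after TAC/MI). A further 1, of TAC/MI against sham surgery in control hearts, is called the surgery contrast below. It shares its control sham hearts with the csNrip1-/- contrast after sham surgery, and its control TAC/MI hearts with the one after TAC/MI. The values of single samples, their spread and their depth are not in these lists, so no mean, SD or interval could be given, and all FDR values below are those of the authors' DESeq2 test. A gene that is not listed missed a threshold or was not tested, which does not show that it was unaltered. Expression levels of different genes cannot be compared with these values.

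The targeted gene was checked first. Nrip1 was not listed in strNrip1-/- heart, gastrocnemius or soleus. In the authors' deposited tables it was listed as higher in hearts labelled csNrip1-/- than in controls. The log2 fold change was 1.41 (FDR 9.83e-13) in sham hearts and 0.86 (FDR 6.85e-06) in TAC/MI hearts. These gene totals include transcripts outside the deleted exon. Because the direction is against the labels, these samples are called hearts labelled csNrip1-/- throughout. Nkx2-5, the gene whose promoter directs Cre in this line, was lower in hearts labelled csNrip1-/- in sham hearts (log2 fold change -0.45, FDR 6.76e-11) and in TAC/MI hearts (log2 fold change -0.59, FDR 7.4e-19).

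Complex III takes electrons from ubiquinol and passes them to cytochrome c, a small soluble carrier in the intermembrane space. Complex IV takes them from cytochrome c and reduces oxygen to water. Both pump protons out of the matrix, and the ATP synthase lets protons back through its membrane c ring, which turns a central stalk inside the catalytic F1 head while a peripheral stalk holds the head still. Subunits of these complexes come from both genomes, and only nuclear genes are considered here. Several complex IV subunits exist as isoforms from separate genes. Cox6a2, Cox7a1 and Cox8b encode the forms typical of heart and skeletal muscle, and Cox6a1, Cox7a2 and Cox8a the forms found in most tissues. Assembly factors insert heme and copper or chaperone unassembled subunits and are not part of the finished complex.

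Of the 46 genes, most were higher in strNrip1-/- gastrocnemius and most were lower in the surgery contrast. In strNrip1-/- gastrocnemius, 29 of the 46 genes were listed, all higher than in control muscle, with a median log2 fold change of 0.41 (range 0.28 to 0.69). That is 63.0% of them, against 16.8% of all 6212 symbols listed higher there and 14.9% listed lower. In the surgery contrast, 34 genes were listed, of which 32 were lower after TAC/MI and 2 higher, with a median of -0.41 (range -0.89 to 0.47). The 32 lower genes are 69.6% of the 46, against 25.4% of all symbols listed lower and 29.4% listed higher in that contrast. In hearts labelled csNrip1-/- after TAC/MI, 14 genes were listed, 13 higher and 1 lower than in control TAC/MI hearts, with a median of 0.33. The 13 are 28.3% of the 46, against 13.3% of all symbols listed higher and 15.5% listed lower. These backgrounds are shares of the symbols listed in any of the 6 lists, not of all genes tested, since the number tested is not in the lists.

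The remaining contrasts held few of these genes. In hearts labelled csNrip1-/- after sham surgery, 7 genes were listed, all lower, with a median log2 fold change of -0.38. Their share of 15.2% is near the background of 15.6% listed lower, and none was among the 17.8% of all symbols listed higher. In strNrip1-/- heart the 1 gene listed, Cox6a2, was higher and is 2.17% of the 46, near the background of 3.06% listed higher, and 1.63% of all symbols were listed lower. In strNrip1-/- soleus none of the 46 was listed, where 5.67% of all symbols were listed higher and 3.8% lower. The number at an unadjusted p cannot be counted in soleus, as the list holds only genes past the threshold.

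**Figure D1:**
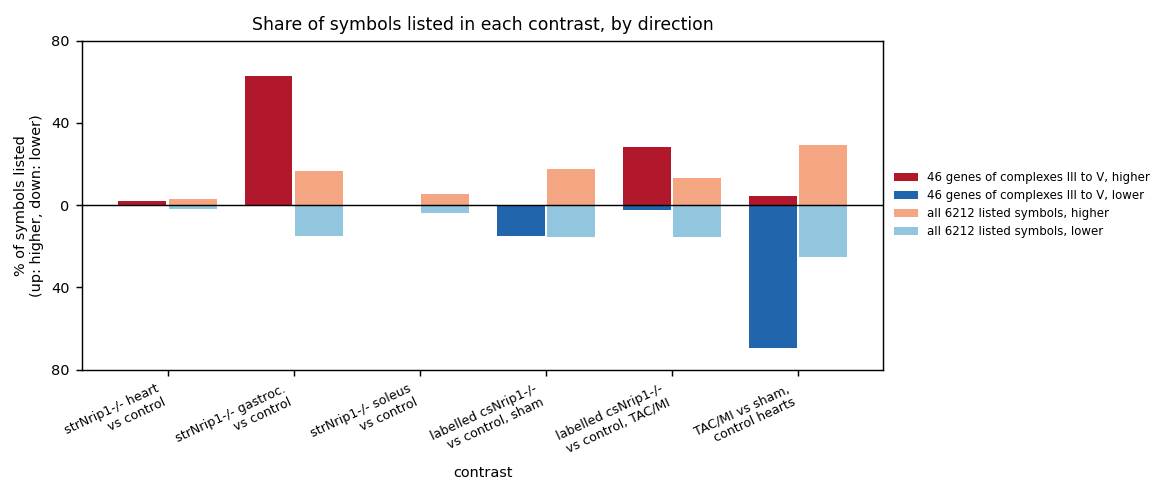
Share of gene symbols listed in each contrast, in percent, drawn upward where expression was higher in the first group and downward where it was lower. Dark bars are the 46 genes of complexes III to V and cytochrome c, pale bars all 6212 symbols of the 6 lists. The dark bar reaches 63.0% upward in gastrocnemius and 69.6% downward in the surgery contrast.

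Changes were small in size. The largest of any of the 46 was the 1.86-fold lower Cox7a1 after TAC/MI. Among the genes listed, 4 in gastrocnemius, 1 in the TAC/MI genotype contrast and 3 in the surgery contrast changed by at least 1.5-fold. The 3 were Cox7a1, Cox6b2 (FDR 0.00533) and the pseudogene Cox6c2, whose value is uncertain, as described below. The median of the 29 genes in gastrocnemius, 0.41, compares with 0.55 over all rows listed higher there, and the surgery median of -0.41 with -0.45 over all rows listed lower. Between 2 and 9 genes in each of the 4 longer sets lay within 0.05 on the log2 scale of the 1.2-fold limit, 6 of them in gastrocnemius and 9 in the surgery contrast. Genes were listed in 1 contrast (16 genes), 2 contrasts (22 genes), 3 contrasts (7 genes) or 4 contrasts (1 gene, Cox6a2).

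**Figure D2:**
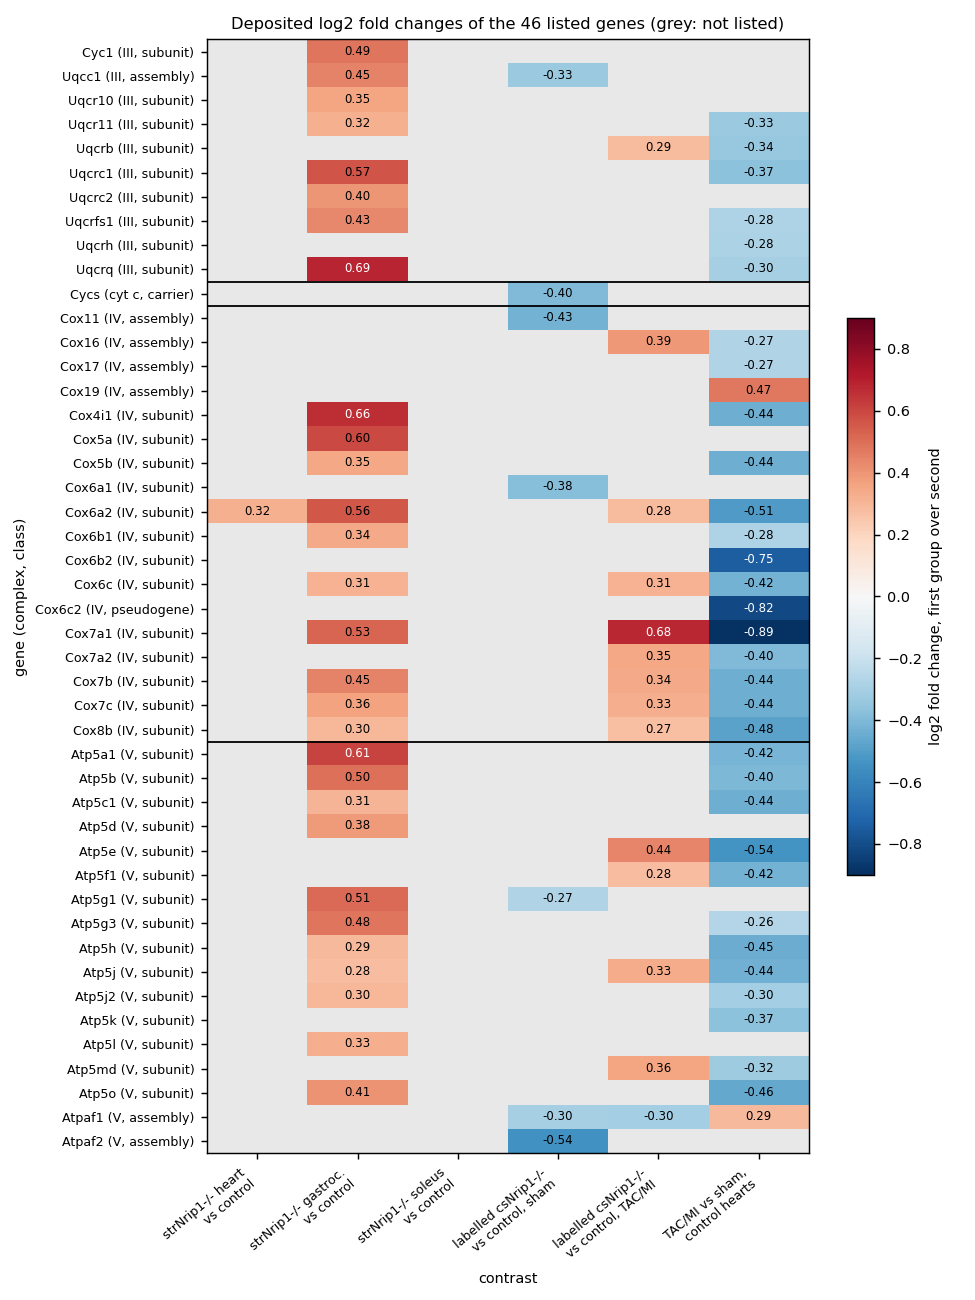
Deposited log2 fold change of each of the 46 genes (rows, grouped by complex) in each of the 6 contrasts (columns). Red is higher and blue lower in the group named first, grey is not listed. The gastrocnemius column is red wherever it is filled, the surgery column is blue except for Cox19 at 0.47 and Atpaf1 at 0.29, and the soleus column is empty.

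Promoters of 4 genes are shown, Atp5g3 because of its motif and the others because each leads or stands apart in a contrast below. Cox7a1 had the largest change of the 46, Atp5e the largest of complex V in both TAC/MI contrasts, Cox6a1 is the form of subunit 6A found in most tissues and was listed in other contrasts than its muscle form, and Atp5g3 has the element of the estrogen-related receptors (ERR), nuclear receptors that act on energy metabolism genes. Each line is the stretch just before the annotated gene, 5′ to 3′ on the gene's strand, with motif matches in capitals (RefSeq promoter windows, GRCm38.p6). Cox7a1 is chr7:30183921-30184143 on the plus strand, Atp5e chr2:174464106-174464351, Cox6a1 chr5:115348982-115349208 and Atp5g3 chr2:73911327-73911576, all on the minus strand.
Cox7a1: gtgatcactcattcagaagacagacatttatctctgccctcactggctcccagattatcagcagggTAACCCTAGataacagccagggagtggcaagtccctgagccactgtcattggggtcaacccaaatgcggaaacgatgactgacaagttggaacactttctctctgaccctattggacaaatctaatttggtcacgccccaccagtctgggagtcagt
Atp5e: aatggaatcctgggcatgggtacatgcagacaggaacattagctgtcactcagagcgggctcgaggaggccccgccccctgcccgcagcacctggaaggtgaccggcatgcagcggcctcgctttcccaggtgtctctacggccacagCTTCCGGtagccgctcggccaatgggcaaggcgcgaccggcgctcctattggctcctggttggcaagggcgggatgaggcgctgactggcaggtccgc
Cox6a1: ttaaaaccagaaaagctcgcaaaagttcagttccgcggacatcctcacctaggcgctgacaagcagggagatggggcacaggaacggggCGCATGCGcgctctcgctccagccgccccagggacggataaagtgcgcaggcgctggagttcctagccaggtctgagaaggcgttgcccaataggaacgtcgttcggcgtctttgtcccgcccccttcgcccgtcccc
Atp5g3: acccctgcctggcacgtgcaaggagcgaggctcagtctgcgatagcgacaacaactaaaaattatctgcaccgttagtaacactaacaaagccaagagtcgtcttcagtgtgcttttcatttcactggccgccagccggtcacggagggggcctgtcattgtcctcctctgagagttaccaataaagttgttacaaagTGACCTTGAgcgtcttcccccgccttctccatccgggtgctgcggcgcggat

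In these stretches the capitals mark a match to a loose MEF2 pattern in Cox7a1 at position -184. They mark an ETS core in Atp5e at -102, an NRF-1 core in Cox6a1 at -161 and the ERR element in Atp5g3 at -52. Positions are those of the first base of a match, counted from the RefSeq start. MEF2 factors act on muscle genes, ETS sites are bound by GABP (NRF-2), and NRF-1 and GABP are known activators of respiratory genes. RefSeq windows, from 250 bases before to 50 bases after a start, were found for 36 of the 46 genes (41 windows). Windows were searched on both strands for CCGGAAG (ETS core), CGCATGCG (NRF-1 core), TNAAGGTCA (ERR element) and CTANNNNTA (loose MEF2 pattern). The MEF2 pattern allows any base (N) in its middle, so a match need not be a MEF2 site. The motifs do not overlap one another in the printed stretches. The ETS core was in 12 of 41 windows (29.3%) of 11 genes, against 8.86% of all 32851 windows and 11.6% of those of protein-coding genes. The NRF-1 core was in 7 windows (17.1%), of Atp5j, Atp5k, Atp5l, Cox6a1, Cycs, Uqcr11 and Uqcrc1, against 1.87% of all windows and 2.52% of protein-coding ones. The ERR element was in 1 window (2.44%), that of Atp5g3, against 1.28%. The MEF2 pattern was in 10 windows (24.4%), against 21.0%. The ETS core was in 10 of 27 windows (37.0%) of genes lower after surgery and in 5 of 25 (20.0%) of genes higher in gastrocnemius. For the NRF-1 core these shares were 14.8% and 16%, for the MEF2 pattern 29.6% and 28%, and for the ERR element 3.70% and 4%. Of 8 windows of genes lower in the sham genotype contrast, 1 had the ETS core, 2 the NRF-1 core, 1 the MEF2 pattern and 0 the ERR element. The windows of the 46 genes had a mean GC content of 57.3%, against 53.8% for all windows. These matches are descriptions of letters in a window, with no test.

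For complex III, 7 of the 9 listed subunit genes were higher in strNrip1-/- gastrocnemius and 6 were lower in the surgery contrast. In gastrocnemius their median log2 fold change was 0.43. The largest change there was Uqcrq, a small accessory subunit, on chromosome 11 from 53427922 to 53430831 (GRCm38, minus strand). It was 1.61-fold higher (log2 fold change 0.69, FDR 1.41e-10) and had the largest value of all 29 genes in that muscle. The smallest was Uqcr11, another accessory subunit (0.32, FDR 0.000104). Both core subunits were higher, Uqcrc1 by 0.57 (FDR 6.71e-08) and Uqcrc2 by 0.40 (FDR 2.91e-06). The same held for the catalytic subunits, cytochrome c1 (Cyc1, 0.49, FDR 3.81e-09) and the Rieske iron-sulfur protein (Uqcrfs1, 0.43, FDR 1.18e-05). The subunits Uqcrb and Uqcrh were not listed in gastrocnemius.

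After TAC/MI in control hearts, the complex III subunits had a median log2 fold change of -0.32. The range was narrow, from -0.37 for Uqcrc1 (FDR 1.89e-12) to -0.28 for Uqcrfs1 (FDR 6.86e-12). Cyc1, Uqcr10 and Uqcrc2, all higher in gastrocnemius, were not listed in this contrast. In hearts labelled csNrip1-/- after TAC/MI, 1 complex III gene was listed, the accessory subunit Uqcrb, which was 0.29 higher (FDR 3.73e-07). Its value in the surgery contrast was -0.34 (FDR 1.32e-09). No complex III subunit was listed in strNrip1-/- heart, in soleus or in the sham genotype contrast.

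Cytochrome c was listed in a single contrast. Cycs, on chromosome 6 from 50562563 to 50566538 (minus strand), encodes the somatic form. It was listed in the sham genotype contrast alone, as were Cox6a1, Cox11 and Atpaf2 below, at -0.40 (FDR 4.77e-07), which is 1.32-fold lower in hearts labelled csNrip1-/-.

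For complex IV, 10 of the 13 listed subunit genes were higher in gastrocnemius and 11 were lower in the surgery contrast. In the TAC/MI genotype contrast 7 were higher. The 13 leave out subunit genes in no list, such as Cox8a and Cox4i2. The gastrocnemius values ran from 0.30 for Cox8b (FDR 0.00962) to 0.66 for Cox4i1 (FDR 2.06e-09), and Cox5a, which neighbours subunit 4 in the complex, was next at 0.60 (FDR 2.47e-10). After TAC/MI in control hearts the subunits had a median of -0.44, from -0.28 for Cox6b1 (FDR 6.7e-09) to -0.89 for Cox7a1 (FDR 1.09e-38). In hearts labelled csNrip1-/- after TAC/MI the 7 values ran from 0.27 for Cox8b (FDR 1.29e-05) to 0.68 for Cox7a1 (FDR 1.9e-22). Cox5a, higher in gastrocnemius, was not listed after TAC/MI in either contrast, and Cox6a1 was not listed in any of these 3.

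Cox7a1, the muscle form of subunit 7A, lies on chromosome 7 from 30184144 to 30186078 (plus strand). In the surgery contrast its FDR ranked 31 among the 3404 rows, and in the TAC/MI genotype contrast 45 among 1792 rows. Expression was 1.86-fold lower after TAC/MI in control hearts, and 1.60-fold higher in hearts labelled csNrip1-/- than in control hearts after TAC/MI. In gastrocnemius it was 1.44-fold higher in strNrip1-/- muscle (log2 fold change 0.53, FDR 2.14e-05). It was not listed in strNrip1-/- heart, soleus or the sham genotype contrast.

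Cox6a2, the muscle form of subunit 6A, lies on chromosome 7 from 128205435 to 128206387 (minus strand) and was the gene listed most often. Its log2 fold change was 0.32 in strNrip1-/- heart (FDR 0.00347), where it ranked 104 of 291 rows. It was 0.56 in gastrocnemius (FDR 1.96e-11) and 0.28 in the TAC/MI genotype contrast (FDR 1.89e-08). In the surgery contrast it was -0.51 (FDR 2.8e-25). The form found in most tissues, Cox6a1, on chromosome 5 from 115345642 to 115348981 (minus strand), was listed in the sham genotype contrast alone, where it was 1.30-fold lower (log2 fold change -0.38, FDR 7.53e-11). That was the smallest FDR of the 7 genes listed in this contrast. Thus no list held both forms of subunit 6A. Whether the isoforms of a pair differed was not tested, since an unlisted isoform has no value.

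For subunit 7A, both forms were listed in both TAC/MI contrasts. Cox7a2, the form found in most tissues, was at -0.40 in the surgery contrast (FDR 6.04e-10), where Cox7a1 was at -0.89. In the TAC/MI genotype contrast Cox7a2 was at 0.35 (FDR 7.03e-08), where Cox7a1 was at 0.68. In gastrocnemius Cox7a1 was listed and Cox7a2 was not. For subunit 8, the muscle form Cox8b was listed in 3 contrasts, at 0.30 in gastrocnemius, 0.27 in the TAC/MI genotype contrast and -0.48 in the surgery contrast (FDR 9.06e-16), while Cox8a was listed in none. All 3 muscle forms were thus higher in gastrocnemius and in the TAC/MI genotype contrast and lower after surgery, and none was listed in the sham genotype contrast.

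For subunit 4, which has a regulatory role, Cox4i1 was 1.59-fold higher in gastrocnemius and 1.36-fold lower after TAC/MI (log2 fold change -0.44, FDR 9.6e-30). The second form, Cox4i2, known for its expression in lung and under low oxygen, was listed in none. For subunit 6B, Cox6b1 was at 0.34 in gastrocnemius (FDR 5.1e-06) and -0.28 in the surgery contrast. Cox6b2, best known from testis, was listed in the surgery contrast alone, at -0.75, with an FDR of 0.00533 that is larger than that of any other complex IV subunit there. For subunit 7B, Cox7b was at 0.45 in gastrocnemius (FDR 3.27e-09), 0.34 in the TAC/MI genotype contrast (FDR 5.03e-12) and -0.44 in the surgery contrast (FDR 5.46e-19), and Cox7b2 was not listed.

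**Figure D3:**
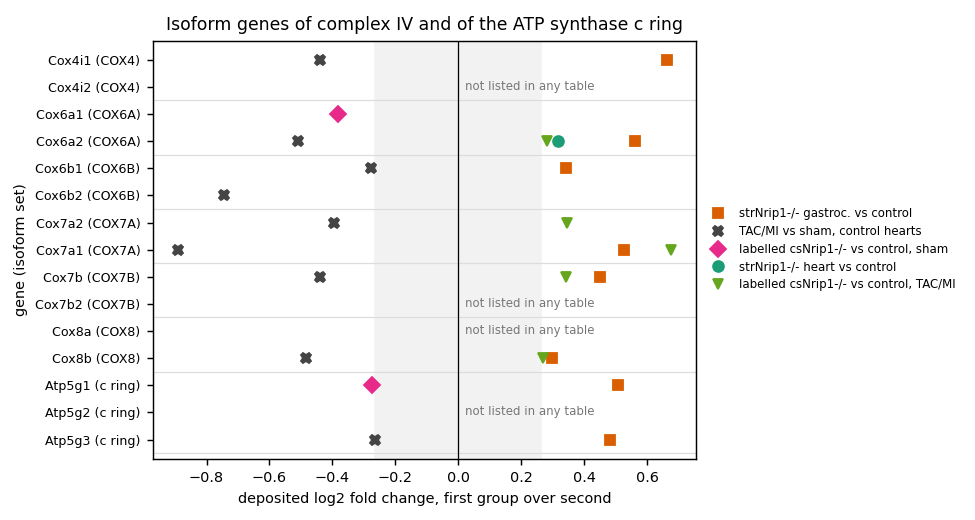
Deposited log2 fold changes (horizontal axis) of the isoform genes of complex IV and of the ATP synthase c ring (rows), with 1 symbol per contrast. The grey band is the range below the 1.2-fold limit, in which no gene could be listed. Cox7a1 lies furthest out on both sides in the TAC/MI contrasts, at -0.89 and 0.68, and Cox6a1 has a single value, -0.38.

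The complex IV subunits without tissue forms that were listed in 3 contrasts were Cox6c and Cox7c, both small membrane subunits. Cox6c was at 0.31 in gastrocnemius (FDR 0.00122), 0.31 in the TAC/MI genotype contrast (FDR 4.13e-07) and -0.42 in the surgery contrast (FDR 4.28e-12). For Cox7c the values were 0.36 (FDR 8.27e-05), 0.33 (FDR 1.31e-09) and -0.44 (FDR 1.17e-16) in the same order. Cox6c2, a processed pseudogene on chromosome 12 from 56373593 to 56373823 (minus strand), was listed in the surgery contrast at -0.82 (FDR 3.67e-06). Its sequence is 96.97% identical to Cox6c over 231 of 231 bases, so reads of the 2 cannot be kept apart with certainty, and its value is uncertain.

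Other near-identical copies bear on these values too. Of the 46 genes, 15 had at least 1 annotated pseudogene copy (95% or more identity over 50% or more of its length), 38 copies in all. Of these copies, 4 were themselves listed. Gm10012 and Gm12338, copies of Cox7c, were at -0.72 and -0.40 in the surgery contrast, in the direction of Cox7c itself, and Gm12338 was at 0.31 in the TAC/MI genotype contrast. Gm10221, which is 100% identical to Atp5l over 309 bases, was at 0.64 in gastrocnemius, where Atp5l was at 0.33, and at -0.32 in the surgery contrast, where Atp5l was not listed. Gm10039, a copy of Atp5g1, was at -0.30 in the surgery contrast, where Atp5g1 was not listed. How reads were shared between gene and copy was not tested.

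For the ATP synthase, 11 of the 15 listed subunit genes were higher in gastrocnemius and 12 were lower in the surgery contrast. In the TAC/MI genotype contrast 4 were higher. The 15 leave out genes in no list, such as Atp5g2 and Atp5mpl. In gastrocnemius the largest change was in the F1 head, where the alpha subunit Atp5a1 was 1.52-fold higher (log2 fold change 0.61, FDR 8.26e-14). Its FDR ranked 36 among 1968 rows and was the smallest of the 29 genes. The catalytic beta subunit Atp5b was at 0.50 (FDR 3.62e-07). The smallest change was Atp5j, coupling factor F6 of the peripheral stalk (0.28, FDR 0.000364). After TAC/MI in control hearts the median was -0.42. The values ran from -0.54 for Atp5e, the epsilon subunit of the central stalk (FDR 8.47e-27), to -0.26 for Atp5g3 (FDR 6.26e-07), while Atp5a1 was at -0.42 (FDR 1.49e-17).

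After TAC/MI in hearts labelled csNrip1-/-, the 4 ATP synthase subunits listed were Atp5e at 0.44 (FDR 6.43e-18), Atp5md (DAPIT) at 0.36, Atp5j at 0.33 (FDR 2.59e-10) and Atp5f1 at 0.28 (FDR 3.97e-09). Atp5f1 and Atp5j belong to the peripheral stalk. Atp5e lies on chromosome 2 from 174461072 to 174464105 (minus strand). Of these 4, Atp5j was also listed in gastrocnemius, and its value in the surgery contrast was -0.44 (FDR 7.46e-17). Atp5a1, Atp5b and Atp5c1, which form the bulk of the F1 head and its shaft and were listed both in gastrocnemius and in the surgery contrast, were not listed in either genotype contrast of the csNrip1-/- line.

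The c ring genes differ in the leader sequences they encode, while their mature proteins are the same. Atp5g1, on chromosome 11 from 96068852 to 96075670 (minus strand), was 1.42-fold higher in strNrip1-/- gastrocnemius (log2 fold change 0.51, FDR 1.65e-08). In hearts labelled csNrip1-/- after sham surgery it was 1.21-fold lower (log2 fold change -0.27, FDR 3.36e-06), close to the 1.2-fold limit. Atp5g3 was at 0.48 in gastrocnemius (FDR 3.13e-06) and at -0.26 in the surgery contrast, also close to the limit. Atp5g2 was listed nowhere.

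Assembly factors made up 7 of the 46 genes, and in gastrocnemius 1 of them was listed, beside 28 of 37 subunit genes. Both counts leave out genes in no list, assembly factors such as Cox10 and Uqcc2 among them, and the difference was not tested. The listed factor, Uqcc1, aids assembly of cytochrome b into complex III and was at 0.45 (FDR 0.000586). In the sham genotype contrast, 4 of the 7 listed genes were assembly factors. Uqcc1 was at -0.33 there (FDR 0.00385), opposite to its direction in gastrocnemius, as was Atp5g1. Cox11, which inserts copper into complex IV, was at -0.43 (FDR 0.000799). The F1 chaperones Atpaf1, which binds the beta subunit, and Atpaf2, which binds the alpha subunit, were at -0.30 (FDR 0.0143) and -0.54 (FDR 0.000274). Atpaf2, 1.46-fold lower, had the largest change of the 7.

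In the surgery contrast, Atpaf1 and Cox19 rose, while all subunits of their complexes listed there fell (12 of the 15 and 11 of the 13 in any list). Cox19, a redox relay for copper delivery to complex IV on chromosome 5 from 139336189 to 139351418 (minus strand), was 1.39-fold higher after TAC/MI (log2 fold change 0.47, FDR 9.79e-09). Atpaf1, on chromosome 4 from 115784812 to 115818828 (plus strand), was 1.22-fold higher (0.29, FDR 0.0168). Cox16 and Cox17, other complex IV assembly factors, were lower at -0.27 each (FDR 0.0405 and FDR 2.42e-06). In the TAC/MI genotype contrast, Atpaf1 was at -0.30 (FDR 0.00901), the 1 lower gene among 14. Cox16 was at 0.39 (FDR 0.00237).

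The TAC/MI genotype contrast and the surgery contrast use the same 3 control TAC/MI hearts, so a chance value in those hearts moves the 2 log2 differences in opposite directions. The values of the 14 genes of the genotype contrast are therefore given side by side, with no test. Cox7a1 was at -0.89 for surgery and 0.68 for genotype, Atp5e at -0.54 and 0.44, and Cox6a2 at -0.51 and 0.28. Cox16 was at -0.27 and 0.39.

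**Figure D4:**
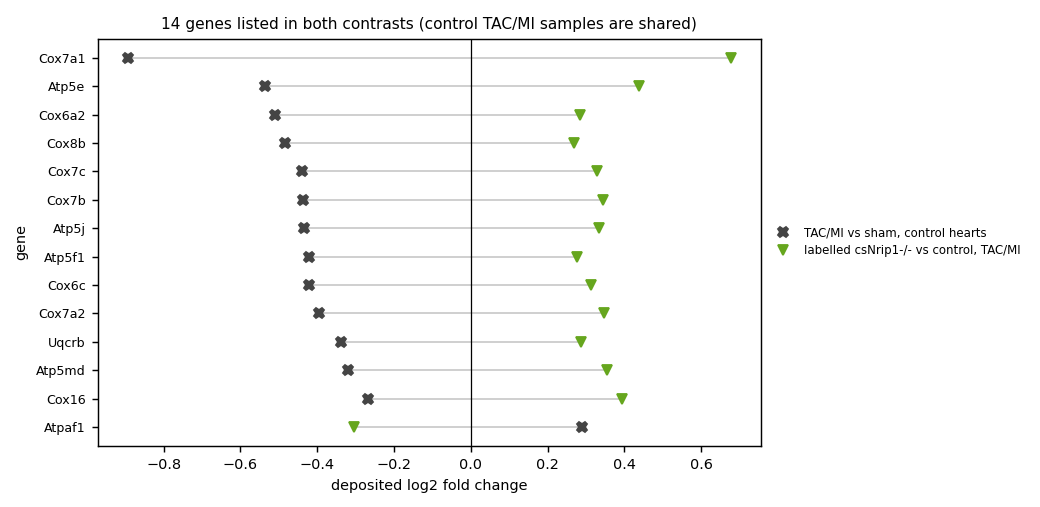
Deposited log2 fold changes (horizontal axis) of the 14 genes listed in both the surgery contrast (crosses) and the TAC/MI genotype contrast (triangles), which share the 3 control TAC/MI hearts. Crosses lie at -0.89 to -0.27 and triangles at 0.27 to 0.68, except for Atpaf1, at 0.29 for surgery and -0.30 for genotype.

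The gastrocnemius and surgery contrasts share no samples. Of the 29 genes higher in gastrocnemius and the 34 listed in the surgery contrast, 21 were in both, 72.4% of the first set and 61.8% of the second. These shares are near those of all 46 genes, 73.9% listed in the surgery contrast and 63.0% in gastrocnemius. Sets of these sizes among 46 genes share at least 17. All 21 were higher in strNrip1-/- gastrocnemius and lower after TAC/MI. Since all 29 gastrocnemius genes were higher and 32 of the 34 surgery genes lower, these directions add little to the counts. The gastrocnemius and TAC/MI genotype contrasts, also without shared samples, had 7 genes in common, all higher in both, namely Atp5j, Cox6a2, Cox6c, Cox7a1, Cox7b, Cox7c and Cox8b. These are 24.1% of the gastrocnemius set and 50% of the other, beside the 63.0% of all 46 genes that were listed in gastrocnemius, and sets of these sizes could share as few as 0. Apart from the peripheral stalk subunit Atp5j, all 7 belong to complex IV.

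Genes of other functions were counted beside these. Of a list of 28 symbols of complexes III to V that fall outside the naming rule, mostly assembly factors, 8 were lower in the sham genotype contrast. Their median was -0.39. The list includes Usmg5, an older symbol of Atp5md, which is already counted above. The 8 include Taco1, a translational activator of a mitochondrial complex IV subunit (-0.51, FDR 3.38e-07), and Bcs1l, which inserts the Rieske protein into complex III (-0.47, FDR 1.82e-05). In the surgery contrast 6 were lower, among them Lrpprc, which stabilises mitochondrial mRNAs (-0.43, FDR 5.62e-12). In gastrocnemius 4 were higher, Lrpprc included at 0.48 (FDR 2.69e-07), and 2 were lower, the complex IV assembly factors Coa3 (-0.38, FDR 0.000729) and Coa6 (-0.32, FDR 0.049). In the TAC/MI genotype contrast 1 was listed, the ATP synthase assembly factor Fmc1 (0.28, FDR 0.00184). None was listed in strNrip1-/- heart or soleus.

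Markers of mitochondrial content moved with the respiratory genes in some contrasts. Of 14 such genes, 9 were higher in gastrocnemius (0.28 to 0.53), including citrate synthase (Cs, 0.37, FDR 0.00222), and 7 were lower in the surgery contrast (-0.42 to -0.29). In the sham genotype contrast 4 were lower (-0.35 to -0.26). In strNrip1-/- heart 1 was listed, the phosphate carrier Slc25a3 (0.35, FDR 0.0391). None of the 14 was listed in the TAC/MI genotype contrast, where 13 of the 46 respiratory genes were higher, and none in soleus. The 46 had to be in at least 1 list and the 14 did not, so these counts cannot be compared directly. The part of mitochondrial content in the values above was not tested.

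Among 14 regulators of respiratory genes, Esrra, which encodes ERRα, was 0.49 higher in gastrocnemius (FDR 0.000195), and Tfam, which maintains and transcribes mitochondrial DNA, was 0.30 higher (FDR 0.045). Tfam was at -0.35 both in the sham genotype contrast (FDR 0.0175) and in the surgery contrast (FDR 0.0253). These contrasts share the control sham hearts, so a chance value there moves both in the same direction. Ppargc1a, which encodes the coactivator PGC-1α, was at -0.36 in the TAC/MI genotype contrast (FDR 0.000723), opposite to the respiratory genes there. In all, 2 of the 14 were listed in gastrocnemius, 3 in the sham genotype contrast (2 higher, Tfb2m and Myc), 1 in the TAC/MI genotype contrast and 3 in the surgery contrast (Hif1a higher, Gabpa and Tfam lower). None was listed in strNrip1-/- heart or soleus.

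Markers of other cell types also moved. In bulk tissue, fewer cells of a type and less RNA per cell cannot be told apart. In strNrip1-/- gastrocnemius, 9 of 13 cardiomyocyte markers were higher and 1 lower. Myh6, the adult heart myosin, was at 1.99 (FDR 1.45e-13), Nkx2-5 at 1.87 (FDR 0.00287), Mybpc3 at 1.81 (FDR 0.000169) and Tnni3 at 1.70 (FDR 5.19e-05), while Actc1 was at -0.89 (FDR 0.000682). Levels in each sample are not in the lists, so the summed level of these markers could not be given. Their part in the gastrocnemius values of Cox6a2, Cox7a1, Cox8b and the other genes was not tested. Of the same 13 markers, 1 was higher in strNrip1-/- heart (Actn2, 0.41), none was listed in soleus, 1 was higher and 4 lower in the sham genotype contrast, 3 were higher and 2 lower in the TAC/MI genotype contrast, and 1 was higher and 4 lower in the surgery contrast. Myh7, the fetal heart myosin of the mouse and a marker of cardiac stress, was the higher gene in the sham genotype contrast (2.33, FDR 9.7e-18) and in the surgery contrast (3.54, FDR 2.36e-41). It was at -2.13 in the TAC/MI genotype contrast (FDR 6.81e-16). The surgery contrast shares control hearts with each of the other contrasts named here, so these values are not independent.

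In the surgery contrast, 8 of 10 fibroblast markers were higher (0.36 to 2.79) and 7 of 10 macrophage and leukocyte markers were higher (0.38 to 0.73), beside the 32 respiratory genes that were lower. The largest was Postn, a matrix protein of activated fibroblasts (2.79, FDR 3.8e-67). In the TAC/MI genotype contrast, 5 fibroblast markers were lower (-1.13 to -0.48) and 1 macrophage marker was lower (-0.56), beside the 13 respiratory genes that were higher. The part of these cells in the respiratory values was not tested. In the sham genotype contrast 4 fibroblast markers were lower and 1 higher, and 2 of 10 endothelial markers were lower. In gastrocnemius 4 fibroblast markers were lower and 3 endothelial markers higher, and no endothelial marker was listed in the other 4 contrasts. In strNrip1-/- heart 1 fibroblast and 2 macrophage markers were lower, and in soleus 1 macrophage marker was higher.

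Markers of muscle fibre types were listed as well. In soleus, 6 of 12 fast fibre markers were lower (-5.03 to -0.65) and none of 10 slow fibre markers was listed, while none of the 46 respiratory genes was listed. In gastrocnemius 2 slow fibre markers were higher, Casq2 (0.76, FDR 0.0228) and Myl2 (0.51, FDR 0.000252). Myl2 is also among the cardiomyocyte markers counted above. The slow fibre markers Myh7, Tnnt1 and Tnni1 were not listed there. Of the fast fibre markers 1 was higher and 2 were lower in gastrocnemius. Slow fibre markers that the heart also expresses were listed in the sham genotype contrast (1 higher, 3 lower), the TAC/MI genotype contrast (2 higher, 1 lower) and the surgery contrast (3 higher, 4 lower), and 1 fast fibre marker was higher in the sham genotype contrast and 1 in the surgery contrast.

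**Figure D5:**
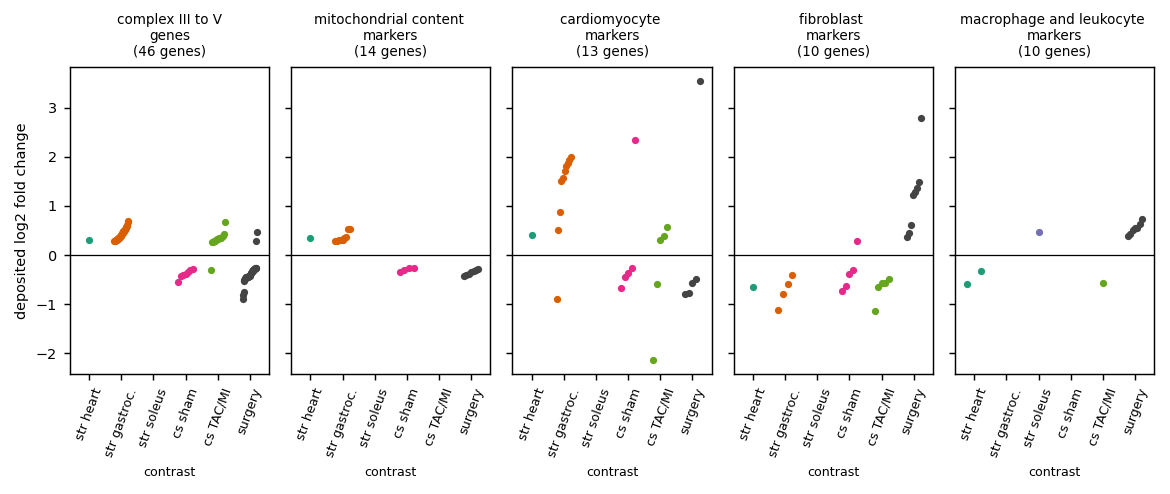
Deposited log2 fold changes (vertical axis) of listed genes by contrast (horizontal axis), in 5 panels for the 46 respiratory genes, 14 mitochondrial content markers, 13 cardiomyocyte markers, 10 fibroblast markers and 10 macrophage and leukocyte markers. Each point is 1 listed gene. In gastrocnemius the respiratory genes lie at 0.28 to 0.69 and the cardiomyocyte markers reach 1.99, and in the surgery contrast the fibroblast markers reach 2.79.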

How the data were processed

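RNA was made from heart, gastrocnemius and soleus of mice, as 32 samples in 10 groups, and poly(A) libraries were sequenced. Per the submitters' processing notes, the authors used Salmon 1.3.0 and DESeq2 1.36.0 with mouse build GRCm38. Each deposited log2 value is the fold change between the groups of a contrast, which the authors shrank toward 0 with ashr, and the deposited p-values are adjusted for false discovery rate (FDR) by the authors. Both are the authors' own comparisons, and the lists keep only genes with an FDR below 0.05 and at least 1.2-fold change. They hold no counts, so depth and replicate spread are not given in the lists used here, no test was run beyond the authors' own, and nothing could be adjusted over the list alone. Shrinkage makes fold changes of uncertain genes smaller. Where reads match several transcripts, Salmon divides them, so the values of a gene and its copy are not independent.

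From these lists, genes were selected by symbol, counted by direction and described by medians with Python 3.11.15 and pandas 2.3.3. Of repeated symbols in a list, the entry of smallest FDR was kept. The background is the 6212 symbols in any of the 6 lists. Positions are from GENCODE vM21 (GRCm38), in which 1 gene, Atp5md, was found under an older symbol. Copies were sought with blastn 2.17.0, and promoter windows are RefSeq's. The longer NRF-1 and MEF2 palindromes were searched first, and the shorter patterns reported were chosen after their results were seen. Counting was tested on simulated data.

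The genes, lists and motifs were chosen with earlier results of these data known. Genes named are those in 3 or more lists, all listed isoform genes, the largest and smallest change per contrast and complex, and genes against their complex or differing in direction between the strNrip1-/- contrasts and the sham genotype contrast. Other genes named were chosen after their values were seen. Alternatives were an FDR below 0.01, at least 1.5-fold, subunits and cytochrome c alone, and pseudogenes left out.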

Additional observations from a re-analysis of the deposited data

How the results depend on the processing

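The counts of listed genes depended most on the size of change required. At least 1.5-fold left 0 genes in strNrip1-/- heart (from 1), 4 in gastrocnemius (from 29), 0 in the sham genotype contrast (from 7), 1 in the TAC/MI genotype contrast (from 14) and 3 in the surgery contrast (from 34). Counting subunits and cytochrome c alone left 3 genes in the sham genotype contrast, since 4 of the 7 were assembly factors. The other 18 counts and all 15 medians recomputed under the alternatives stayed within 1.5 times their value, with no change of direction. At an FDR below 0.01 the counts were 1 in strNrip1-/- heart, 29 in gastrocnemius, 0 in soleus, 6 and 14 in the genotype contrasts after sham surgery and TAC/MI, and 32 in the surgery contrast. In place of the shorter NRF-1 core, the longer palindrome was in 3 of 41 windows (7.32%), against 0.971% of all windows. The longer MEF2 palindrome, which also allows any base in its middle, was in 1 (2.44%), against 3.69%. No paired analysis was possible because the lists hold no values of single samples, and replicates could not be left out for the same reason.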
